A study of Caenorhabditis elegans with 14 samples.

Results

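The piRNA loci carried by the neighbouring clones Y105C5A and Y105C5B, a piRNA-dense stretch of Caenorhabditis elegans chromosome IV, were examined in small RNA sequencing of worms with and without RNA interference against snpc-4. Their members were the rows of class 21u whose identifier begins with either clone name. Of 2615 such rows, 4 were left out because they were among the 10 most abundant 21u rows of the experiment, which left 2611 of the 15366 listed piRNAs, or 17.0%. Y105C5A supplied 1233 of them and Y105C5B 1378. All 2611 matched a piRNA of 21 nucleotides on chromosome IV in the RefSeq gene table of assembly WBcel235, where the Y105C5A loci all come before the Y105C5B loci.

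Worm piRNAs, also called 21U-RNAs for their length and their first base, are germline small RNAs bound by the Argonaute protein PRG-1, and they guide silencing of foreign or unwanted transcripts. Most are made from very short genes of their own, each with its own promoter, that lie packed in broad domains of chromosome IV between and inside ordinary genes. SNPC-4, formerly GEI-11, is a DNA-binding subunit of the SNAP complex, which is best known for its role at genes of small nuclear RNAs.

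The question of the comparison is how these loci differ when snpc-4 is targeted. One library came from whole young adults of the wild-type strain N2 fed bacteria carrying the empty vector L4440, named control RNAi, and the other from N2 young adults fed bacteria making snpc-4 double-stranded RNA. Feeding began in larvae, at stage L1 or L2 depending on the label. The series has 14 samples, and the other 12, from chromatin immunoprecipitation, were not analysed here. With 1 library per group there is no replicate check, so no p-value is given and every statement compares 2 libraries. All intervals are at 95%. Intervals of counts and ratios hold counting error alone, and such reads, having no molecular identifiers, are not independent molecules. Intervals of shares and medians treat loci as a sample. The mRNA of snpc-4 is not in the tables, so its depletion was not measured here. In whole animals, fewer germ cells and less piRNA per germ cell cannot be told apart.

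Abundance was deposited as counts and as RPM, reads scaled to the library total. The RPM values rest on totals of 20413480 (control) and 20875010 (snpc-4 RNAi) reads, of which the 21u rows hold 64824 and 32086 counts. A single count equals 0.0490 RPM for control and 0.0479 RPM for snpc-4 RNAi. A count of 0 allows up to 0.147 and 0.144 RPM, which is 3 counts of each total.

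Y105C5 piRNAs were less abundant in the snpc-4 library. The 2611 loci summed to 6111 counts in the control library, or 299 RPM (292 to 307), and to 2830 counts in the snpc-4 library, or 136 RPM (131 to 141). The ratio of snpc-4 to control RPM was 0.453 (exact interval 0.433 to 0.474). Both clones showed it. Y105C5A loci had 2150 and 1067 counts, a ratio of 0.485 (0.451 to 0.523), and Y105C5B loci had 3961 and 1763 counts and a ratio of 0.435 (0.411 to 0.460). The Y105C5B ratio divided by the Y105C5A ratio was 0.897 (0.818 to 0.984).

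The other 12755 piRNAs had 58713 and 29256 counts and a ratio of 0.487 (0.480 to 0.494). The Y105C5 ratio was 0.929 times that of the other rows (counting interval 0.887 to 0.974). Against the other rows without the 10 most abundant, which had a ratio of 0.504 (0.495 to 0.513), it was 0.899 times as large (0.857 to 0.944). The difference was seen for Y105C5B. Its ratio was 0.893 times that of the other rows (0.843 to 0.946), while the Y105C5A ratio was 0.996 times that (0.924 to 1.07). Without the 10 most abundant rows these values were 0.864 (0.815 to 0.917) for Y105C5B and 0.964 (0.894 to 1.04) for Y105C5A. For the Y105C5B sums the difference is larger than counting error, and for Y105C5A it was not detectable at this depth. The spread between libraries of one group cannot be measured here. The Y105C5B sums include 21ur-3609 (563 and 225 counts) and 21ur-4857 (442 and 129). Their ratios of 0.391 and 0.285 are below the 0.435 of the clone, which was not compared without both. A difference from the other rows or from Y105C5A is thus not shown for the remaining Y105C5B loci. Without the 5 most abundant members the log2 ratio of the whole stretch moved from -1.14 to -1.08. It was -1.04 for the other rows and -0.99 for those without the 10 most abundant. Other piRNA-rich clones of the same chromosome also had ratios nearer to 1 than the whole stretch. Clone Y73F8A, with 1118 loci, had 2448 and 1331 counts and a ratio of 0.532 (0.497 to 0.569), and the Y105C5 ratio was 0.852 times that (0.786 to 0.923), with an interval that included 1 for Y105C5A alone (0.827 to 1.01). The Y57G11 clones, with 1502 loci, had 5494 and 2783 counts and a ratio of 0.495 (0.473 to 0.519), and the Y105C5 ratio was 0.914 times that (0.858 to 0.974), again with an interval that included 1 for Y105C5A alone (0.899 to 1.07).

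The Y105C5 members, 17.0% of the listed piRNAs, supplied 9.43% of the control piRNA counts and 8.82% of the snpc-4 ones. The 4 rows left out supplied more than the 2611 members together, 18.4% and 14.2%, and remain in these totals. The members' shares thus follow from the rule and do not describe the whole stretch. The 4 rows were 21ur-908 (7881 and 2673 counts), 21ur-5842 (2062 and 880), 21ur-7645 (1133 and 679) and 21ur-5597 (827 and 338), with a summed ratio of 0.375 (0.363 to 0.389). The least abundant of these, 21ur-5597, and the most abundant member, 21ur-3609 with 563 and 225 counts, stand on either side of the line drawn by the rule.

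Most Y105C5 loci had no read. A read in either library was found at 638 of 2611 loci, or 24.4% (22.8% to 26.1%), against 25.8% (25.1% to 26.6%) of the other piRNAs. In the control library 552 loci were seen, 21.1% (19.6% to 22.8%), and in the snpc-4 library 446, 17.1% (15.7% to 18.6%). The values for the other piRNAs were 21.8% (21.1% to 22.6%) and 19.4% (18.7% to 20.1%). Reads fell in both libraries at 360 members, in the control library alone at 192 and in the snpc-4 library alone at 86. Of the 638 loci with reads, 378 had 1 to 4 counts over both libraries.

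Whether a locus had reads went with its overlap with another piRNA locus, which was looked at after the data had been seen. In the RefSeq table, 1288 members, 49.3%, overlap another piRNA locus and 1323 do not. Reads were found at 594 of the 1323 loci without overlap, 44.9% (42.2% to 47.6%), and at 44 of the 1288 overlapping loci, 3.42% (2.49% to 4.56%). Among the 1228 members that start within 5 nucleotides of another locus the share was 2.61%, and among the 60 that start 6 to 20 nucleotides away it was 20.0% (10.8% to 32.3%). The other piRNAs had the same contrast, with 41.2% (40.0% to 42.3%) of 7483 loci without overlap and 4.06% (3.54% to 4.63%) of 5269 overlapping loci. The authors' way of counting reads that match overlapping loci, not given in the sources used here, was not tested for its part in these shares. A locus at 0 is thus only listed at 0, and its piRNA may still have been present.

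Overlap also bears on how this stretch compares with the rest. Overlapping loci were 49.3% of the members and 41.3% of the other piRNAs with a position. Among loci without overlap, the share with reads was higher for the members (44.9%) than for the others (41.2%), while over all loci it was lower (24.4% and 25.8%). Per library, loci without overlap were seen at 39.2% in control and 31.5% in snpc-4 RNAi for the members, and at 35.1% and 31.0% for the others. Summed counts were lower with snpc-4 RNAi in both kinds of loci. Members without overlap had 5367 and 2492 counts, a ratio of 0.454 (0.433 to 0.476), and overlapping members had 744 and 338 counts, a ratio of 0.444 (0.389 to 0.506). This value rests on 21ur-3609, with 563 and 225 of these counts. Without it, 181 and 113 counts remained, a ratio of 0.611 (0.478 to 0.776), which lies just above the interval of members without overlap.

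**Figure D1:**
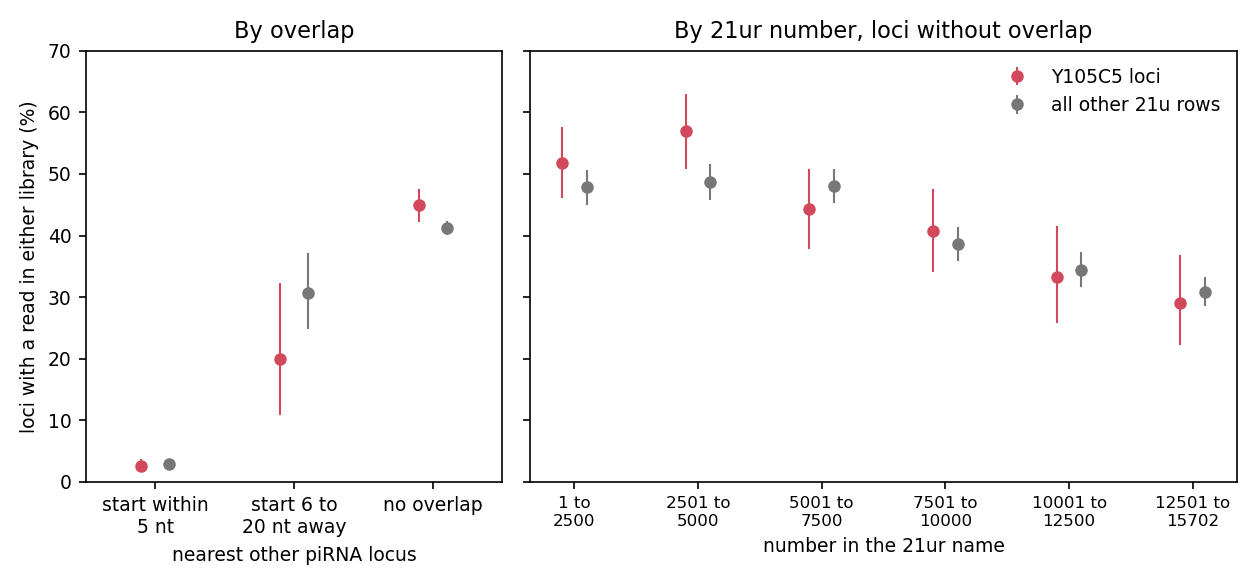
Share of piRNA loci with a read in either library (y axis, percent, with exact 95% intervals over loci) for Y105C5 loci and all other 21u rows, on the left by the distance to the start of the nearest other piRNA locus and on the right by the number in the 21ur name, for loci without overlap. Loci that start within 5 nucleotides of another were seen at under 3% in both sets, and loci without overlap at 44.9% and 41.2%.

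The 21ur number is a catalogue number, and members with low numbers were seen more often. Among loci without overlap, reads were found at 51.8% (46.0% to 57.6%) of 301 members numbered 1 to 2500 and at 151 of 265 (50.8% to 63.0%) numbered 2501 to 5000. The share was 44.3% for 5001 to 7500, 40.7% for 7501 to 10000 and 33.3% for 10001 to 12500, and it was 29.1% (22.2% to 36.9%) of 158 members numbered 12501 to 15702. In the other piRNAs without overlap the shares were 47.8%, 48.7%, 48.0%, 38.6%, 34.5% and 30.9% in the same order of classes. Low numbers were thus seen more often there too. Over all members, with and without overlap, the ratio stood differently against the other piRNAs, which include the 10 most abundant, from class to class. For numbers 1 to 2500 it was higher for the members, 0.461 (0.424 to 0.502), than for the others, 0.406 (0.395 to 0.416). For 2501 to 5000 it was 0.413 (0.386 to 0.442) and 0.410 (0.397 to 0.424). These 2 classes held 27.8% and 46.7% of the members' control counts. The others of the first class, with 20884 and 8661 counts, include 21ur-908, a Y105C5B row left out of the members. That row alone has 7881 and 2673 of these counts and a ratio of 0.332, below the 0.406 of its class. The class was not compared without it. A higher ratio of the members is thus shown only against a class that includes this row. For 5001 to 7500 it was 0.520 and 0.553 with overlapping intervals, for 7501 to 10000 it was 0.489 (0.421 to 0.567) and 0.599 (0.570 to 0.628), and for 10001 to 12500 it was 0.447 (0.338 to 0.586) and 0.692 (0.639 to 0.750). The members' last class had 107 and 82 counts, a ratio of 0.749 (0.555 to 1.01), so its difference was not detectable at this depth. The other piRNAs of that last class had a ratio of 0.867 (0.812 to 0.925). These classes were chosen after the data had been seen.

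The counts were concentrated on few loci. In the control library the 10 highest members held 33.5% of the Y105C5 counts, the 50 highest 61.9% and the 100 highest 77.6%, and 29 loci, 1.11% of the members, were enough to hold 50% of them. In the snpc-4 library the 10 highest held 29.5%, and 35 loci were needed for 50%. At least 100 counts were found at 8 members for control and at 3 for snpc-4 RNAi, and 20 to 49 counts at 54 and 22 members. In Y73F8A 13 loci, 1.16% of its loci, held 50% of the control counts, and in the Y57G11 clones 11 loci, 0.732%, did. Their 10 highest loci held 45.9% and 49.8% of the control counts. Among all other 21u rows 24 loci, 0.188%, held 50%. Without the 10 most abundant rows, 94 loci, 0.738%, did. The members' values leave out the abundant rows of these clones that the rule removed.

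The most abundant member was 21ur-3609 (Y105C5B.280), with 563 counts for control and 225 for snpc-4 RNAi. Its ratio was 0.391 (0.333 to 0.457). It starts within 5 nucleotides of another piRNA locus, so its own count is uncertain. 21ur-4857 (Y105C5B.111), which overlaps none, had 442 and 129 counts and a ratio of 0.285 (0.233 to 0.348). These counts correspond to 27.6 and 10.8 RPM for 21ur-3609 and to 21.7 and 6.18 RPM for 21ur-4857, and no other member exceeded 10 RPM in either library.

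The most abundant Y105C5A members did not share 1 ratio. 21ur-471 (Y105C5A.208) had 127 and 111 counts, and its ratio of 0.855 (0.656 to 1.11) included 1. 21ur-3380 (Y105C5A.294) had 165 and 62 counts, a ratio of 0.367 (0.270 to 0.495). 21ur-4402 (Y105C5A.428) had 166 and 59 counts, a ratio of 0.348 (0.254 to 0.470), and 21ur-8040 (Y105C5A.635) had 135 and 57, a ratio of 0.413 (0.297 to 0.567). The last 3 were similar to each other, and their intervals lay below that of 21ur-471.

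The rest of the 10 highest were Y105C5B loci. 21ur-4238 (Y105C5B.589) had 142 and 37 counts, a ratio of 0.255 (0.172 to 0.368). 21ur-304 (Y105C5B.287) had 123 and 37 counts, a ratio of 0.294 (0.198 to 0.428). 21ur-1837 (Y105C5B.80) had 91 and 25 counts, a ratio of 0.269 (0.165 to 0.422). 21ur-2850 (Y105C5B.272), which lies within the span of a protein-coding gene, went the other way with 68 and 81 counts, and its ratio of 1.16 (0.833 to 1.63) included 1. Thus 8 of the 10 had an interval below 1, and 21ur-471 and 21ur-2850 did not.

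**Figure D2:**
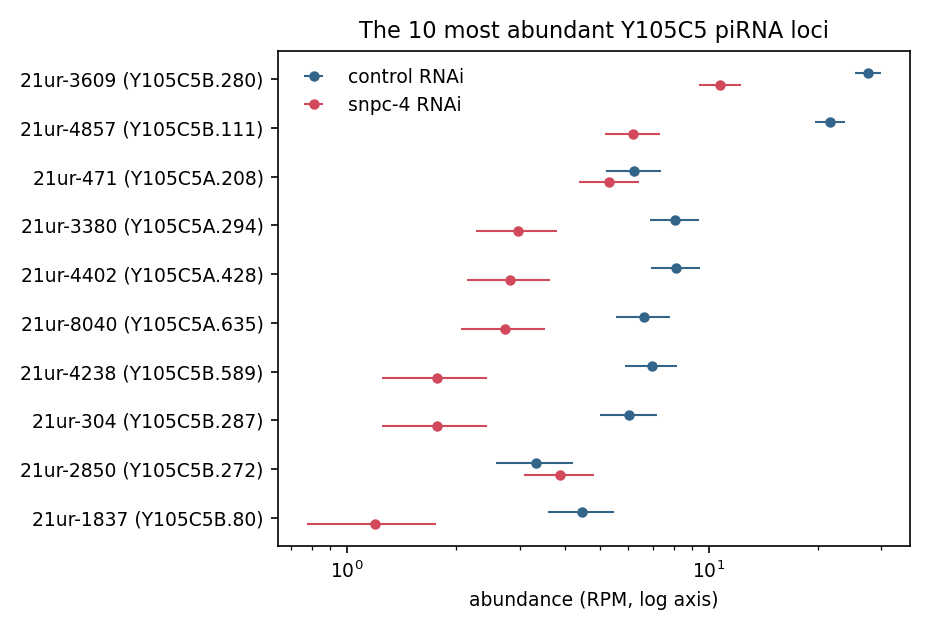
Abundance of the 10 most abundant Y105C5 members (rows) in the control RNAi and snpc-4 RNAi libraries (x axis, RPM, log scale), with exact Poisson 95% intervals of the single library's count. The intervals of the libraries are apart for 8 loci and overlap for 21ur-471 and 21ur-2850.

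Ratios of single loci were taken where the mean over both libraries was at least 10 counts, with 1 read added to each count before scaling. This minimum was passed by 93 of the 2611 members, 3.56%, and by 467 of the other piRNAs, 3.66%. Of the 93, 88 were lower with snpc-4 RNAi and 5 were higher. Among all 560 piRNAs above the minimum 89.6% were lower and 10.4% higher. At least 2-fold lower values were found at 58 of the 93, 62.4%, beside 55.7% of all 560, and at least 2-fold higher values at 0 of the 93, beside 0.893% of all 560. The counting interval of the ratio lay below 1 for 55 of the 93, 59.1%, beside 58.6% of all 560, so by that measure the members' share is near the background.

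The median log2 ratio of the 93 members was -1.25 (exact interval -1.43 to -1.03), with quartiles of -1.65 and -0.77. It was -1.07 (-1.15 to -0.99) for the 467 others, with quartiles of -1.49 and -0.49. The medians were -1.06 (-1.25 to -0.74) for 42 loci of Y73F8A and -1.13 (-1.27 to -0.94) for 69 loci of the Y57G11 clones, and the members' interval overlaps each of the 3. No difference between the clones was detectable in this measure, with -1.19 for 42 Y105C5A loci and -1.32 for 51 Y105C5B loci and overlapping intervals. Across the 93 loci the log2 counts of the libraries had a Pearson correlation of 0.794 and a Spearman correlation of 0.711. The points share both libraries and their depth, and the 467 others had 0.855 and 0.710.

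**Figure D3:**
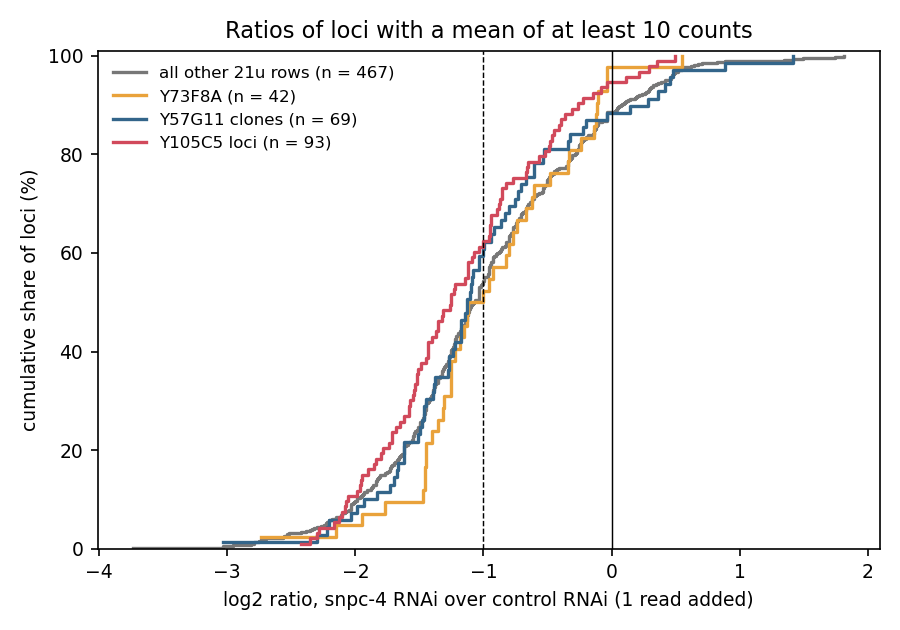
Cumulative share of loci (y axis, percent) by log2 ratio of snpc-4 RNAi to control RNAi (x axis), for loci with a mean of at least 10 counts. The curve of the Y105C5 loci reaches 62.4% at the 2-fold lower line (dashed), beside 54.4% for all other 21u rows, and 94.6% at equal abundance (solid), beside 88.7%.

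**Figure D4:**
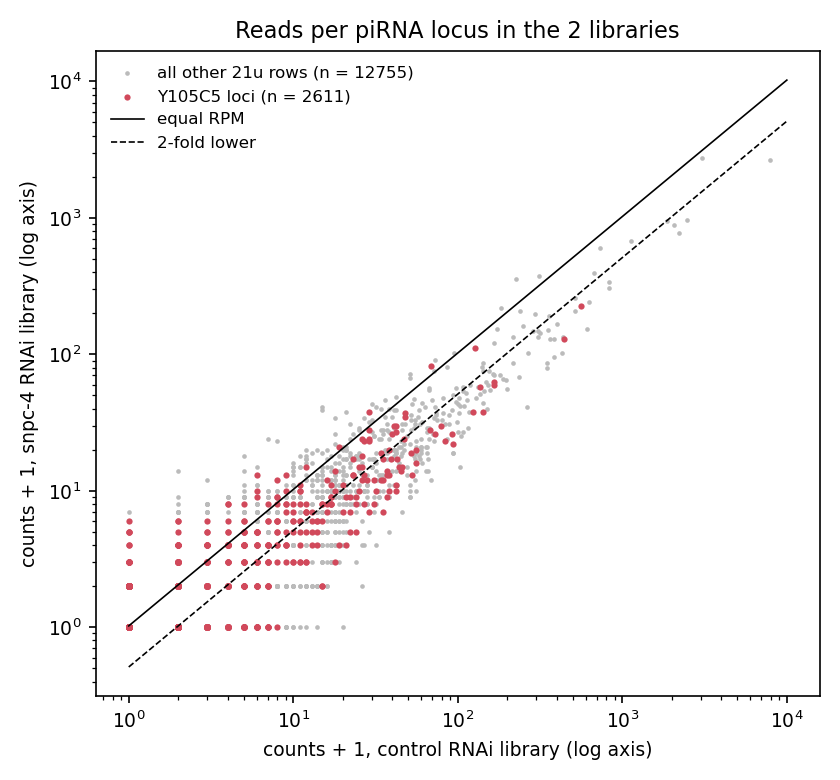
Counts plus 1 of each piRNA locus in the control RNAi library (x axis) and the snpc-4 RNAi library (y axis), both on log scales, with Y105C5 loci over all other 21u rows. Most Y105C5 loci above the minimum lie below the line of equal RPM, and 58 of the 93 with a mean of at least 10 counts lie at or below the 2-fold line.

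The lowest ratios were found at loci with few reads. 21ur-2576 (Y105C5A.399) had 20 and 3 counts, a log2 ratio of -2.42. 21ur-4759 (Y105C5A.109) had 34 and 6 counts, a log2 ratio of -2.35. Then came 21ur-5706 (Y105C5A.675) with 23 and 4 counts, 21ur-7546 (Y105C5A.1261) with 18 and 3, and 21ur-1036 (Y105C5B.547) with 21 and 4. For all 5 the counting interval of the ratio lay below 1, with upper bounds between 0.416 and 0.558. As they were picked for their low ratios, this is no test of them. The interval includes the ratio of the whole stretch, 0.453, for all but 21ur-4759.

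The highest ratios were small. Besides 21ur-2850 they belonged to 21ur-5059 (Y105C5A.145) with 8 and 12 counts, 21ur-5734 (Y105C5B.1133) with 28 and 37, 21ur-2485 (Y105C5B.484) with 11 and 14, and 21ur-7930 (Y105C5A.514) with 18 and 20. Their log2 ratios lay between 0.11 and 0.50, and every one of the 5 intervals included 1. These 5 are the members above the minimum that were higher in the snpc-4 library, and 21ur-7930 falls below equality when counts are scaled to all listed counts or to microRNA counts. Of the 5, 21ur-2850, 21ur-7930 and 21ur-5734 lie within the span of a protein-coding gene, as do 16 of the 88 that were lower.

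Loci seen in 1 library alone had few reads. At least 5 counts in 1 library and 0 in the other were found at 13 members, 12 of them with reads in the control library. Those 12 are 0.460% of the members, beside 0.345% of all 15366 piRNAs, and the 1 with reads for snpc-4 RNAi is 0.0383%, beside 0.0456%. The other piRNAs had 41 and 6 such loci, so most were control loci there too. 21ur-4959 (Y105C5B.442) had 7 counts in control and 0 in snpc-4 RNAi. 21ur-8685, 21ur-4355, 21ur-2876 and 21ur-498 had 6 and 0. 21ur-1682, 21ur-1528, 21ur-3449, 21ur-3453, 21ur-792, 21ur-10965 and 21ur-9718 had 5 and 0. The reverse was found at 21ur-14858 (Y105C5A.1091), with 0 and 5. Of the 13, 10 belong to Y105C5B, which has 1378 of the 2611 members and 373 of the 638 with reads. All 10 had their reads in the control library, 0.726% of the Y105C5B members, beside 0.162% (2 loci) of the Y105C5A members. Whether the clones differ in this was not tested. The counting interval of the ratio lay below 1 for the 5 loci with 6 or 7 counts and included 1 for the 8 with 5. The latter differences were thus not detectable at this depth. With 0 in 1 library this interval is set by the other count, by which the loci were picked. It is therefore no test of any of the 13.

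Abundant and scarce members were both lower in the snpc-4 library. The 13 members with a mean of at least 50 counts had 2276 and 895 counts and a ratio of 0.385 (0.356 to 0.416). The 40 with a mean from 20 to below 50 had 1583 and 736, a ratio of 0.455 (0.416 to 0.497), and the 40 from 10 to below 20 had 779 and 361, a ratio of 0.453 (0.399 to 0.514). The 545 members with reads but a mean below 10 had 1473 and 838 counts and a ratio of 0.556 (0.510 to 0.606). The other piRNAs had 0.461 (0.453 to 0.469), 0.497 (0.476 to 0.518), 0.544 (0.515 to 0.574) and 0.592 (0.571 to 0.614) in the same classes. In both sets the class of scarce loci had the ratio nearest to 1. The members' value was below that of the other piRNAs in each of these 4 classes. The intervals of the 2 sets were apart for at least 50 counts and, narrowly, for 10 to below 20. Within the class below 10 the order was not uniform. From 5 to below 10 the members were higher, 0.552 (0.481 to 0.633) against 0.511 (0.481 to 0.542). They were lower from 1 to below 5, 0.550 against 0.635, and below 1, 0.623 against 0.777.

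Along the chromosome the lower abundance was found throughout the stretch. Each clone was cut, in the order of the RefSeq table, into 6 runs of 205 or 206 loci for Y105C5A and 229 or 230 for Y105C5B. The ratio was below 1 in all 12 runs, with an interval below 1 in each. All but 1 lay between 0.395 and 0.515. The exception, run 3 of Y105C5A, had the fewest counts, 175 and 122, and a ratio of 0.682 (0.537 to 0.864). Its lower bound of 0.537 is above the upper bound of the whole stretch, 0.474.

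Counts were uneven along the stretch and followed single loci. Run 3 of Y105C5B held the most, 1333 and 539 counts, of which 21ur-3609 supplied 42.2% in the control library. Run 5 of Y105C5B held 884 and 381, of which 21ur-4857 supplied 442 and 129, and without it the ratio moved from 0.421 to 0.558 (0.476 to 0.652). In run 5 of Y105C5A, 21ur-8040 supplied 51.5% of 262 control counts, and without it the ratio was 0.624 (0.466 to 0.831) in place of 0.515. In run 1 of Y105C5A, 21ur-471 raised the ratio, which was 0.489 with it and 0.405 (0.346 to 0.473) without it. The share of loci without overlap that had reads ranged from 30.6% (21.7% to 40.7%) in run 5 of Y105C5A to 54.5% (45.2% to 63.6%) in run 3 of Y105C5B. It was 33.0%, 35.1% and 30.6% in runs 3 to 5 of Y105C5A and at least 45.2% in the other 9.

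**Figure D5:**
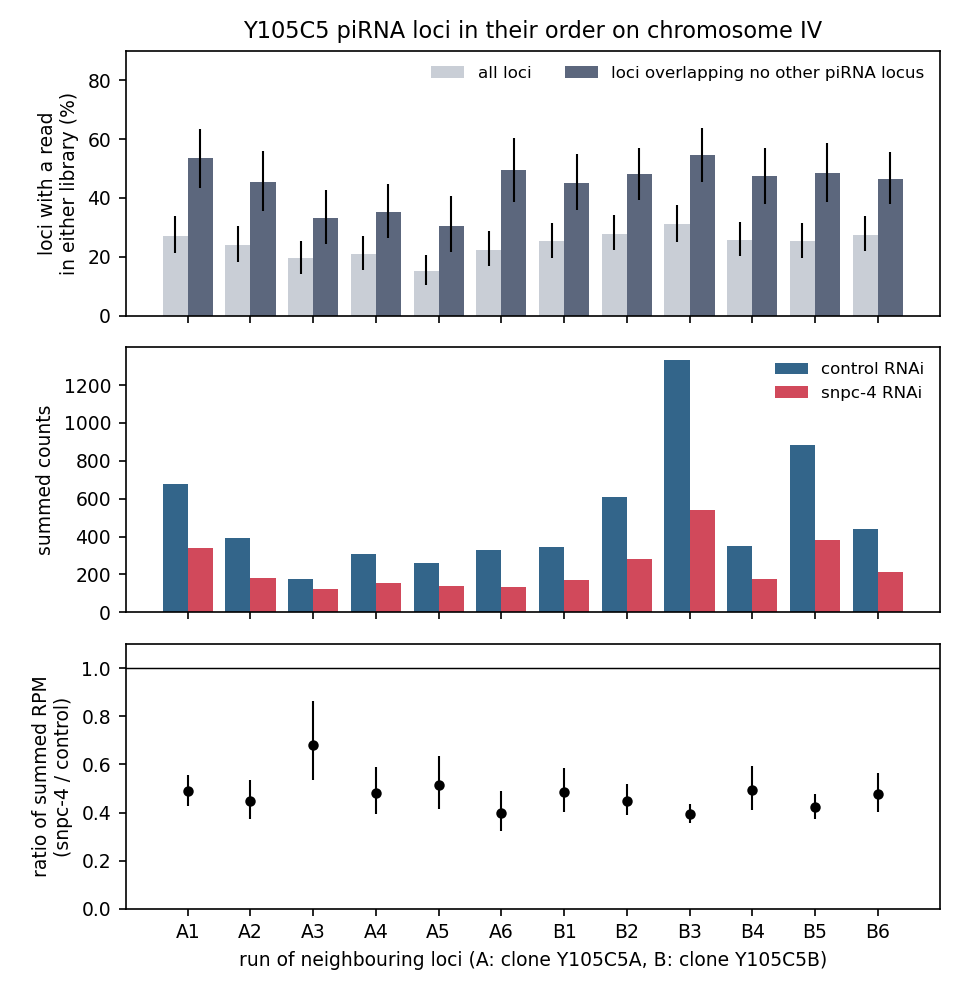
The 12 runs of Y105C5 loci in their order on chromosome IV (x axis; A1 to A6 are Y105C5A, B1 to B6 are Y105C5B), with the share of loci with reads for all loci and for those without overlap (top, exact 95% intervals), summed counts per library (middle) and the ratio of snpc-4 to control RPM with its counting interval (bottom). All 12 ratios lie below 1, with the highest, 0.682, in the third run of Y105C5A.

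Among loci without overlap, those inside ordinary genes did not stand apart in detection. According to RefSeq, 520 members lie in the span of a protein-coding gene, on either strand, and 2091 do not. Among those without overlap, reads were found at 47.3% of 294 inside and at 44.2% of 1029 outside. Over all members the shares were 28.5% (24.6% to 32.6%) inside and 23.4% (21.6% to 25.3%) outside. Of these, 226 inside and 1062 outside overlap another piRNA locus. With and without overlap together, members inside had 1055 and 530 counts, a ratio of 0.491 (0.442 to 0.546). Members outside had 5056 and 2300, a ratio of 0.445 (0.423 to 0.467), and the intervals overlap. Of the members above the minimum, 16 of 19 inside were lower and 3 higher, and 72 of 74 outside were lower and 2 higher.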

How the data were processed

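Per the labels' protocols, total RNA of each group went into 1 library (Illumina small RNA v1.5 kit) of inserts of 22 to 30 nucleotides, a range just above the 21 nucleotides of RefSeq's piRNAs. BWA is named, per the submitters' processing notes, while its version, the build, the annotation and the counting were not given in the sources used here. Tables the authors deposited hold a read count and an RPM value per transcript, per the file headers. RPM is the count divided by 1 constant per library.

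The members, lists and classes were chosen with earlier results of these data known. Counts were summed and scaled to the RPM totals. Ratios have exact conditional binomial intervals, counts exact Poisson, shares Clopper-Pearson and medians order-statistic ones. Ratios of 2 ratios have conditional odds-ratio intervals. Log2 ratios add 1 read and need a mean of at least 10 counts. Named loci are the 10 highest means, the 5 lowest and 5 highest log2 ratios, loci with at least 5 counts against 0, and the 2 highest of each clone. Others, such as the rows left out, were named after their values were seen.

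Names, order and overlaps came from RefSeq's WBcel235 table, which matched 15363 of 15366 piRNAs. It gives no strand, and no coordinates are printed, since the files' build is unknown. Sequences and the upstream motif were not analysed here. The scaling, minimum, pseudocount, comparison set and members were varied as alternatives. The steps, tested on simulated data, ran in Python 3.11.15 with SciPy 1.17.1, pandas 2.3.3, NumPy 2.4.6 and matplotlib 3.10.9.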

Additional observations from a re-analysis of the deposited data

How the results depend on the processing

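Of 46 alternative values, 30 stayed inside the interval of the value given above (for counts, inside 1.5 times it), 16 lay outside, and 0 changed sign. Counts and shares of loci, which are among the 46, cannot change sign, so only the log2 values could have done so. The cause of the changes was not tested. Relative to RPM, log2 ratios shift by -0.14 when scaled to all listed counts, by -0.20 when scaled to microRNA counts and by 0.014 with the median ratio without piRNAs. The log2 ratio of summed counts, -1.14, was -1.28 and -1.34 under the first 2, -1.04 for Y105C5A loci alone and -1.32 with the 4 rows of these clones put back. The median was -1.45 when scaled to microRNA counts and -0.95 over all 638 loci with a read. At least 2-fold lower were 36 of 53 loci with a minimum mean of 20 counts and 318 of 638 with no minimum. By class of mean count, this share was 84.6% for members and 68.2% for the others from 50 up. From 20 to below 50 it was 62.5% and 56.5%, and from 10 to below 20 it was 55.0% and 45.6%. From 5 to below 10 it was 42.2% and 49.3%, from 1 to below 5 40.5% and 36.2%, and below 1 61.1% and 55.7%. At least 2-fold higher were 1 of 157 with a minimum of 5 and 18 of 638 with none. With a mean from 1 to below 5 they were 17 of 296 members and 173 of 1617 others. From 5 to below 10 they were 1 of 64 members and 8 of 353 others. With 1 read added, a lone control read gives a log2 ratio of -1.03 and a lone snpc-4 read gives 0.97. A single read can thus only make a locus 2-fold lower, as at 113 of the 185 members with a mean below 1. Scaled to microRNA counts, 74.2% of the 93 members and 64.5% of all 560 piRNAs were at least 2-fold lower. The share of loci with a read, 24.4%, was 12.2% with 3 or more reads in one library, 13.8% with a read in both, 21.1% in control alone, 17.1% in snpc-4 RNAi alone and, chosen after seeing the data, 44.9% without overlap. The log2 ratio minus that of the other piRNAs, -0.11, was -0.23 against Y73F8A alone. No paired analysis was possible because each group has 1 library. With most members at 0 to 4 counts, depth limits single loci to large differences.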

Other observations

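Reads at neighbouring Y105C5 loci went together only weakly. Among members without overlap, taken in order, reads were found at 48.3% (44.2% to 52.4%) of 594 loci whose preceding neighbour had reads and at 42.0% (38.4% to 45.7%) of 728 whose preceding neighbour had none. The intervals overlap. Among the other piRNAs without overlap the shares were 46.1% (44.3% to 47.9%) and 37.7% (36.3% to 39.2%), and they were apart.

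Of the 93 members above the minimum, 4 overlap another piRNA locus, and all 4 were lower in the snpc-4 library. Named after their values were seen, they were 21ur-3609 (563 and 225 counts), 21ur-4207 (47 and 36), 21ur-4484 (37 and 12) and 21ur-2024 (14 and 7).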
